A study of Mus musculus with 4 samples.

Results

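Intraflagellar transport (IFT) is the traffic of protein cargo along the microtubules of a cilium or flagellum. The mRNAs of 31 mouse genes of this system were followed among the 21936 genes of the count table. They were chosen by their GENCODE vM21 symbol: Ift or Bbs followed by a digit, or one of Ttc21b, Wdr19, Wdr35, Traf3ip1, Cluap1, Hspb11, Tctex1d2, Dync2h1 and Dync2li1. All 31 passed the filter on low counts, which kept 14722 genes. They encode 8 subunits of the IFT-B core, 6 of the IFT-B peripheral complex, 6 of IFT-A, 3 of the dynein-2 motor, 6 of the BBSome and 2 chaperonin-like BBS proteins.

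The study asked which mRNAs accompany TSSK2, a testis-specific serine kinase of the late chromatoid body (late-CB), a cytoplasmic granule of elongating spermatids. Testes of adult C57BL/6 mice, more than 8 weeks old, were digested to a germ cell suspension, which was cross-linked with paraformaldehyde, lysed and sonicated. Protein-RNA complexes of the pellet were then captured on beads with an antibody to TSSK2 (TSSK2-IP, 2 libraries) or with mouse IgG (control IgG-IP, 2 libraries), and no genetic change is stated for any of the 4 libraries. RNA released from the beads was sequenced in directional libraries without removal of rRNA. The labels do not say whether replicates came from separate animals, so the p-values measure only the spread between these samples, which may be technical. The control gives RNA that came down with IgG, not the level of an mRNA in the cell, and fewer cells of a type and less RNA per cell cannot be told apart in such bulk samples.

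IFT trains carry tubulin and other axonemal precursors from the base of the flagellum to its tip and back. The IFT-B complex is associated with outward movement by kinesin-2 motors, and IFT-A with return by the dynein-2 motor. The BBSome is a coat-like adaptor complex that rides on the trains and moves membrane proteins, and several BBS proteins that resemble chaperonins help to assemble it. In the testis, spermatids build the sperm tail with this machinery, and loss of IFT20, IFT25, IFT27, IFT88 or IFT172 in mouse germ cells or of BBSome subunits in the mouse impairs the formation of sperm flagella.

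Many genes of cilia are controlled by RFX transcription factors, which bind a DNA element called the X-box. This element was searched because it is a property of the genes that their choice by name did not use. The letters searched were GTNNCC, then 0 to 3 bases of any kind, then NGNAAC, on both strands of the RefSeq promoter window (250 bases before to 50 bases after the gene start, GRCm38.p6). A window was found for 27 of the 31 genes, and none for Ift81, Ift80, Ift122 and Dync2li1. A match was present in 6 of the 27 windows (22.2%), against 5.25% of all 32851 windows. The matches of these 6 genes are shown 5′ to 3′, on the strand where the motif reads forward, with the fixed letters of the motif in capitals. In Ift22 and Ift57 a second match was present. The Bbs7 match and the first Ift57 match read as the motif on both strands, and overlapping readings were counted once per window.
Bbs1, chr19:4906613-4906626, plus strand, gene on the minus strand: GTcgCCttgGcAAC
Bbs4, chr9:59353472-59353485, minus strand, gene on the minus strand: GTcgCCcggGaAAC
Bbs7, chr3:36613497-36613510, minus strand, gene on the minus strand: GTtgCCttgGaAAC
Ift22, chr5:136908117-136908130, plus strand, gene on the plus strand: GTcgCCgtgGaAAC
Ift22, chr5:136908087-136908100, minus strand, gene on the plus strand: GTagCCcagGaAAC
Ift57, chr16:49699234-49699246, plus strand, gene on the plus strand: GTtgCCtgGtAAC
Ift57, chr16:49699207-49699220, minus strand, gene on the plus strand: GTcaCCacgGcAAC
Ift74, chr4:94614486-94614498, minus strand, gene on the plus strand: GTatCCtaGcAAC
The 6 genes did not share a side in the comparison of TSSK2-IP with control IgG-IP. The fitted log2 fold change was above 0 for Bbs1 and Bbs4, at 0.83 and 0.48, and below 0 for Ift57, Ift22, Ift74 and Bbs7, at -0.19, -0.39, -0.85 and -0.89, and none of them passed the test.

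Total counts were 4158034 and 4491749 for TSSK2-IP and 9858941 and 3938922 for control IgG-IP. Together the 31 mRNAs made up 0.426% and 0.434% of the counts of the TSSK2-IP libraries, and 0.484% and 0.423% of those of the controls. Each of them had at least 20 counts in every library, and 1 count was worth between 0.156 and 0.230 CPM (normalized counts scaled to a common library size), the unit of all levels given here. The median level of the 31 mRNAs was 64.7 and 63.9 CPM in TSSK2-IP and 91.0 and 70.8 CPM in control IgG-IP, against 17.4, 17.1, 12.5 and 15.2 CPM over all genes tested. These medians were not corrected for exon length. Control IgG-IP replicate 1 stood apart from the other libraries and had a normalization factor of 0.652, against 1.12 to 1.18 in the other 3. Over all genes tested, levels therefore summed to 857322 and 849498 CPM in TSSK2-IP and 1533760 and 895234 CPM in control IgG-IP. A CPM value is thus not a share of its library.

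None of the 31 mRNAs was called in the comparison of TSSK2-IP with control IgG-IP. For a call, edgeR's quasi-likelihood test had to give an adjusted p of at most 0.05 with a difference of 1 or more on the log2 scale, upward or downward. Over all genes tested, 102 were called higher in TSSK2-IP, a share of 0.693%, and 0 lower, a share of 0.000%. DESeq2 also called none of the 31 mRNAs. At an unadjusted p under 0.05, 3 of the 31 were higher in TSSK2-IP (Ift20, Tctex1d2 and Ift27) and 0 were lower, where 8.34% and 4.89% of all genes tested were. The smallest adjusted p among the 31 was 0.249, for Ift20.

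The 31 mRNAs split almost evenly by direction. The fitted log2 fold change was above 0 for 15 and below 0 for 16, where 49.2% of all genes tested were above 0. Its median was -0.19 over the 31 mRNAs and -0.02 over all genes tested. For 9 mRNAs the lower TSSK2-IP value exceeded the higher control value, which held for 27.3% of all genes tested. For 10 mRNAs the order was the opposite (21.6% of all genes tested), and for the other 12 the groups overlapped. The gap between the nearest values of the groups was 2-fold or more for 1 mRNA on the higher side, Ift20 (4.01% of all genes tested), and for 0 on the lower side (0.312%).

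**Figure D1:**
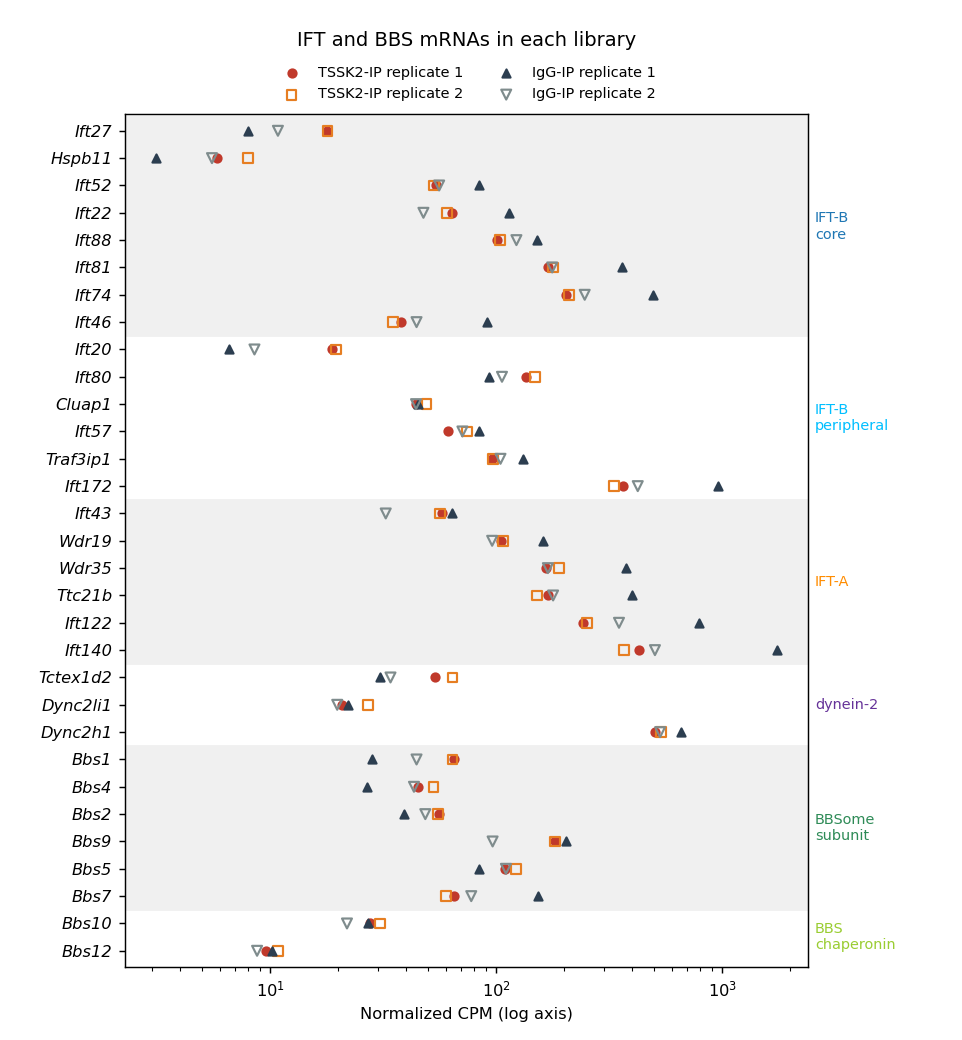
Level of each of the 31 mRNAs in each library, in normalized CPM on a log axis, grouped by complex and ordered within a complex by log2 fold change. Red circles and orange open squares are TSSK2-IP replicates 1 and 2, and dark triangles and grey open triangles control IgG-IP replicates 1 and 2. The TSSK2-IP symbols nearly coincide for most mRNAs, while control replicate 1 lies far to the right for Ift140, at 1747 CPM, and to the left of all others for Ift20, at 6.55 CPM.

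The controls differed from each other more than the TSSK2-IP libraries did. Over the 31 mRNAs, the log2 ratio of the TSSK2-IP replicates had an SD of 0.15, and that of the control replicates an SD of 0.69. Control replicate 1 was at least 2-fold above control replicate 2 for 10 of the 31 mRNAs, against 16.3% of all genes tested, and at least 2-fold below it for 0, against 24.5%. The 2 TSSK2-IP libraries were at least 2-fold apart for 0 of the 31, against 4.95%. Control replicate 1 had the highest level of the 4 libraries for 18 of the 31 mRNAs (58.1%, against 35.0% of all genes tested) and the lowest for 9 (29.0%, against 42.2%). Control replicate 2 had the highest level for 0 of the 31, against 23.3% of all genes tested. These orders are those of normalized levels, in which the factor of 0.652 raised control replicate 1. These numbers of genes were not counted again with scaling to total counts alone, by which some orders differ. Ift88, for example, had 534 of 3938922 counts in control replicate 2, its largest share in the 4 libraries. The median log2 fold change of the 31 mRNAs was 0.14 without control replicate 1 and -0.37 without control replicate 2, and its sign depended on which control was used.

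**Figure D2:**
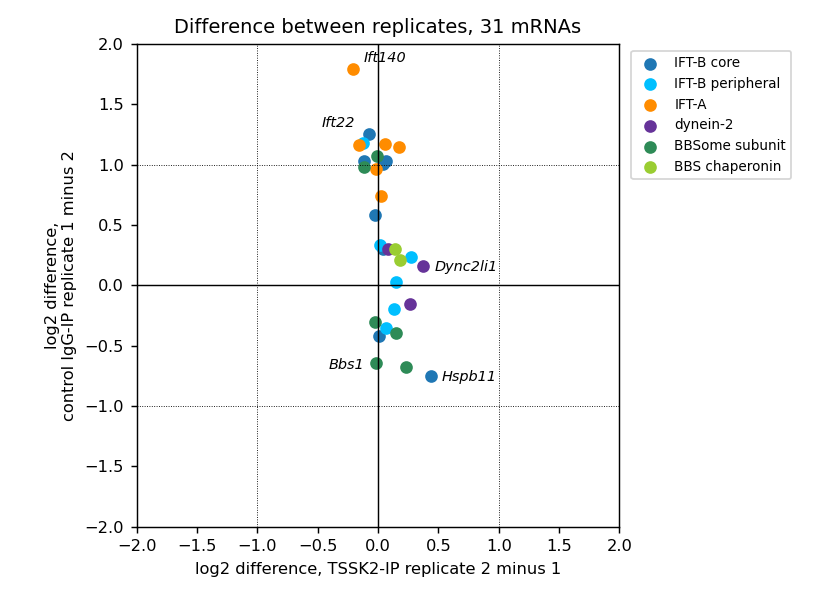
Difference between the 2 replicates of a group for each of the 31 mRNAs, as log2 of TSSK2-IP replicate 2 over replicate 1 (horizontal) and of control IgG-IP replicate 1 over replicate 2 (vertical). Points are coloured by complex and dotted lines mark a 2-fold difference. All points lie within the dotted lines on the horizontal axis, and 10 lie above 1 on the vertical axis, with Ift140 at 1.79.

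The IFT-B peripheral complex held the mRNA with the clearest difference. Ift20 encodes a small subunit that is also found at the Golgi apparatus and is needed for the sorting of cargo to cilia. Its gene lies on chromosome 11 (GRCm38, 78536361 to 78541737, plus strand). The Ift20 level was 18.7 and 19.6 CPM in TSSK2-IP and 6.55 and 8.50 CPM in control IgG-IP, with means of 19.1 ± 0.666 and 7.53 ± 1.38 (SD, n = 2 each). Both TSSK2-IP values were more than 2-fold above both control values. The fitted log2 fold change was 1.35 (SE 0.44, 95% interval 0.41 to 2.29), and the adjusted p of 0.249 did not pass the threshold.

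Ift20 did pass when either control library was left out. Its log2 fold change was 1.22 without control replicate 1 (adjusted p = 0.00410) and 1.47 without control replicate 2 (adjusted p = 3.44e-05). In such a fit the spread between replicates comes from the TSSK2-IP pair alone, and the lone control library is assumed to vary as little as that pair. Over all genes, the same fits called 894 (5.38%) and 2755 (17.9%) genes higher and 426 (2.56%) and 2688 (17.4%) lower.

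The other peripheral subunits lay closer to the controls. Ift172, the mRNA of the largest IFT-B subunit, was at the other end of this complex, with 363 and 333 CPM in TSSK2-IP and 958 and 423 CPM in control IgG-IP. Its log2 fold change was -0.99 (SE 0.69, adjusted p = 0.526), and it was -0.22 without control replicate 1 and -1.53 without control replicate 2. Ift80, which encodes a WD40-repeat subunit, was higher in both TSSK2-IP libraries, at 135 and 148 CPM against 92.5 and 106 CPM, with a log2 fold change of 0.51 (SE 0.45, adjusted p = 0.619). For Ift57, Traf3ip1 (the mRNA of IFT54) and Cluap1 (the mRNA of IFT38) the log2 fold change was -0.19, -0.30 and 0.06.

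Cluap1 was the mRNA with the smallest fitted difference of the 31, with 44.2 and 49.1 CPM in TSSK2-IP and 45.1 and 44.1 CPM in control IgG-IP. Its 95% interval ran from -0.77 to 0.90. The gene shares 22.4% of its exon bases with Gm20695 on the same strand, which had between 0 and 4 counts in a library, and how reads over both were assigned is not given in the sources used here.

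In the IFT-B core, 2 mRNAs were fitted higher and 6 lower, and the median was -0.40 on the log2 scale. It was 0.01 without control replicate 1 and -0.83 without control replicate 2. Both mRNAs on the higher side encode the IFT25 and IFT27 pair, a heterodimer that takes part in the movement of the BBSome. Ift27, the mRNA of a small GTPase-like subunit, measured 17.8 and 17.9 CPM in TSSK2-IP and 7.96 and 10.8 CPM in control IgG-IP. The control values were both lower, and the TSSK2-IP values were almost equal. The fit gave a log2 fold change of 0.93 (SE 0.43, adjusted p = 0.376), and of 1.10 without control replicate 2, where it was called (adjusted p = 0.00202).

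Hspb11, the mRNA of IFT25, measured 5.80 and 7.99 CPM in TSSK2-IP and 3.12 and 5.51 CPM in control IgG-IP. The groups did not overlap, but TSSK2-IP replicate 1 and control replicate 2 were close. In the fit the log2 fold change was 0.69 (SE 0.60, adjusted p = 0.615). Hspb11 had the lowest number of counts of the 31 mRNAs, between 20 and 42 in a library.

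The mRNA of the core with the lowest fitted value was Ift46, whose product carries outer dynein arms in other ciliated organisms. It measured 37.7 and 34.8 CPM in TSSK2-IP and 91.0 and 44.3 CPM in control IgG-IP, so that control replicate 1 stood far above the other 3 libraries. The log2 fold change was -0.90 (SE 0.44, adjusted p = 0.391), and it was -0.23 without control replicate 1 and -1.40 without control replicate 2 (adjusted p = 6.57e-13).

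Ift74 and Ift81 encode the partners of a coiled-coil pair that takes part in tubulin binding. Ift74 measured 203 and 209 CPM in TSSK2-IP and 496 and 246 CPM in control IgG-IP, and Ift81 169.6 and 178 CPM against 361 and 177 CPM. For both mRNAs, control replicate 2 lay near the TSSK2-IP libraries and control replicate 1 was the outer value. The log2 fold change was -0.85 for Ift74 (SE 0.60, adjusted p = 0.525) and -0.63 for Ift81 (SE 0.56, adjusted p = 0.621). Both were called lower without control replicate 2, at -1.34 and -1.13, and neither was called without control replicate 1, at -0.20 and 0.03. For Ift22, Ift52 and Ift88, a tetratricopeptide-repeat subunit whose loss abolishes cilia in mouse, the log2 fold change lay between -0.42 and -0.38.

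IFT-A was the complex with the lowest median, a log2 fold change of -0.74, with 5 of its 6 mRNAs fitted lower. In normalized levels, all 6 were higher in control replicate 1 than in control replicate 2, by between 0.74 and 1.79 on the log2 scale. The normalization factors of these controls, 0.652 and 1.12, make up all of that gap for Wdr19 and part of it for the others. Wdr19 had nearly equal shares of the total counts, 1028 of 9858941 in control replicate 1 and 417 of 3938922 in control replicate 2. The TSSK2-IP libraries of the 6 mRNAs differed by at most 0.21. Ift140, the mRNA of a large WD40-repeat subunit, had 426 and 369 CPM in TSSK2-IP and 1747 and 503 CPM in control IgG-IP. Both TSSK2-IP values were below both controls, and the gap between the controls was wider than the gap between the groups. Ift140 had a log2 fold change of -1.50 (SE 0.81, adjusted p = 0.422, 95% interval -3.24 to 0.24). It was -0.29 without control replicate 1 and -2.21 without control replicate 2.

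Ift122, the mRNA of another core IFT-A subunit, followed the same order, with 242 and 251 CPM in TSSK2-IP and 788 and 349 CPM in control IgG-IP. Ift122 had a log2 fold change of -1.21 (SE 0.66, adjusted p = 0.425), and it was -0.45 and -1.75 without control replicate 1 and 2. Ttc21b, the mRNA of IFT139, had 169 and 151 CPM in TSSK2-IP against 400.4 and 178 CPM, with a log2 fold change of -0.85 (SE 0.57, adjusted p = 0.510), and it was -0.10 without control replicate 1 and -1.39 without control replicate 2. Control replicate 2 lay close to the TSSK2-IP libraries for Ttc21b and further above them for Ift122.

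Wdr35, the mRNA of IFT121, had 167 and 189 CPM in TSSK2-IP and 375 and 169 CPM in control IgG-IP, so that the groups overlapped. Its log2 fold change was -0.62 (SE 0.57, adjusted p = 0.636), and it turned to 0.13 without control replicate 1. Wdr19, the mRNA of IFT144, was at -0.28 and turned to 0.20 in the same way. Ift43, a small subunit, was the only IFT-A mRNA fitted higher, with 57.2 and 56.5 CPM in TSSK2-IP between the controls of 63.7 and 32.4 CPM, a log2 fold change of 0.24 (SE 0.43, adjusted p = 0.830). Without control replicate 1, the median of the 6 IFT-A mRNAs was 0.01, and without control replicate 2 it was -1.27, with 4 of them (Ift140, Ift122, Ttc21b and Wdr35) called lower there, in a fit that called 17.4% of all genes lower.

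**Figure D3:**
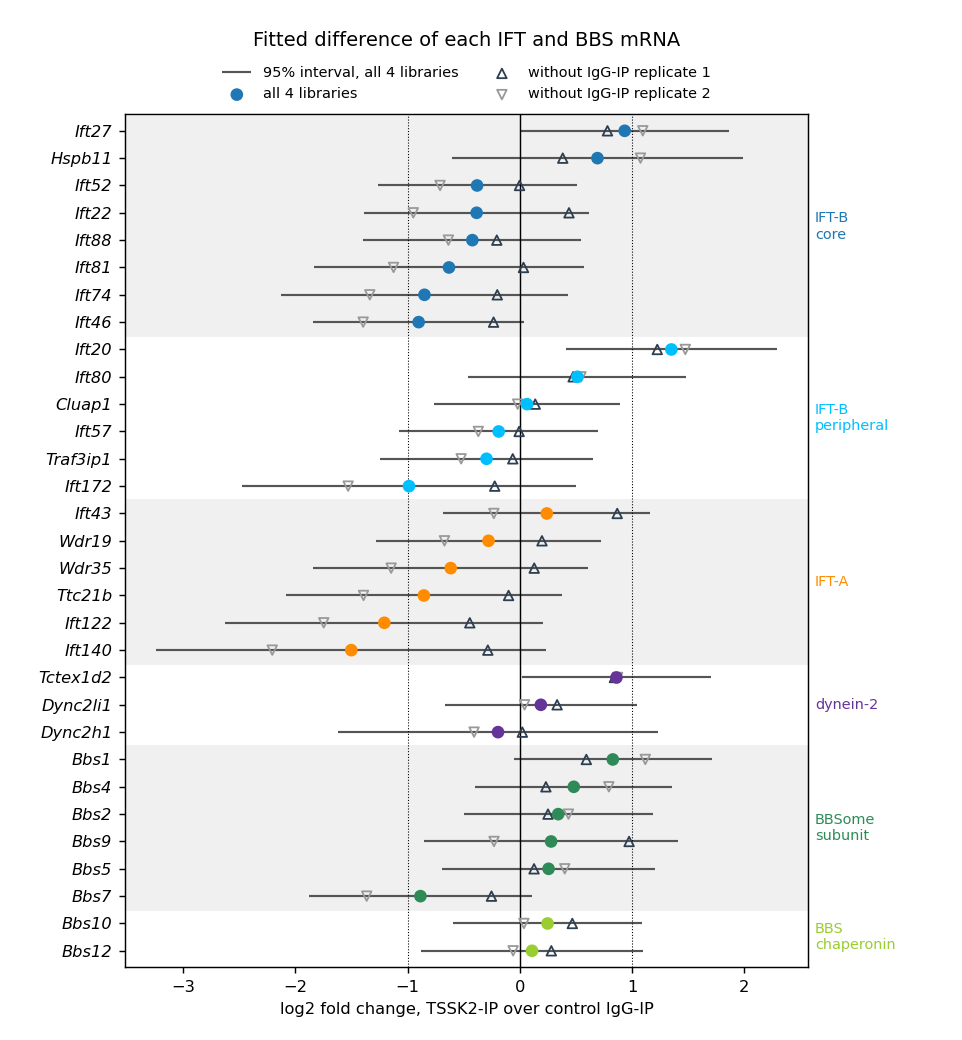
Fitted log2 fold change of each of the 31 mRNAs, TSSK2-IP over control IgG-IP, with its 95% interval (line) from all 4 libraries, and the value without control IgG-IP replicate 1 (open dark triangle) or replicate 2 (open grey triangle). Dotted lines mark a 2-fold difference. The 3 values of Ift20 all lie above 1, whereas those of Ift140 run from -0.29 to -2.21.

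Of the dynein-2 motor, the light chain mRNA Tctex1d2 and the heavy chain mRNA Dync2h1 lay on different sides of 0. Tctex1d2 had 53.3 and 63.9 CPM in TSSK2-IP and 30.6 and 34.0 CPM in control IgG-IP, and the groups were well separated. Tctex1d2 had a log2 fold change of 0.86 (SE 0.39, adjusted p = 0.369, 95% interval 0.02 to 1.71). This value barely depended on the control, at 0.84 without replicate 1 and 0.87 without replicate 2, below the fold threshold in both. With offsets for GC content and length in edgeR, the log2 fold change of Tctex1d2 was 0.52 (adjusted p = 0.581).

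Dync2h1, the mRNA of the motor subunit itself and the longest coding sequence of the 31 at 12918 bases, had 503 and 533 CPM in TSSK2-IP and 655 and 531 CPM in control IgG-IP. The groups overlapped, and the log2 fold change was -0.19 (SE 0.67, adjusted p = 0.921). Dync2li1, the light intermediate chain mRNA, had 20.7 and 27.0 CPM against 22.2 and 19.8 CPM, with a log2 fold change of 0.19 (SE 0.40, adjusted p = 0.863).

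Of the 6 BBSome mRNAs, 5 were fitted higher in TSSK2-IP, and the median log2 fold change was 0.31. The median remained above 0 without control replicate 1, at 0.24, and without control replicate 2, at 0.42, and no BBSome mRNA was called with all 4 libraries. Bbs1, whose product binds the small GTPase ARL6 that recruits the complex to membranes, had 64.7 and 63.9 CPM in TSSK2-IP and 28.2 and 44.3 CPM in control IgG-IP. Bbs1 had a log2 fold change of 0.83 (SE 0.41, adjusted p = 0.395). It was 0.59 without control replicate 1 and 1.12 without control replicate 2, where it was called (adjusted p = 5.48e-07).

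Bbs4 encodes a tetratricopeptide-repeat subunit and Bbs2 a beta-propeller subunit. Bbs4 had 44.8 and 52.7 CPM in TSSK2-IP and 26.8 and 43.2 CPM in control IgG-IP, and Bbs2 56.0 and 55.0 CPM against 39.2 and 48.5 CPM. In both mRNAs the TSSK2-IP values were the higher ones without overlap, and control replicate 2 was the nearer control. The log2 fold change was 0.48 for Bbs4 and 0.34 for Bbs2. Bbs4 shares 194 exon bases with Adpgk on the opposite strand.

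Bbs9 showed how much a value could rest on the choice of control. It had 182 and 181 CPM in TSSK2-IP, between controls of 203 and 96.3 CPM, and its log2 fold change was 0.28 (SE 0.53, adjusted p = 0.842). It was 0.97 without control replicate 1 and -0.23 without control replicate 2. For Bbs5, with 109.7 and 122 CPM in TSSK2-IP and 83.6 and 110.3 CPM in control IgG-IP, the log2 fold change was 0.26, and it turned to -0.19 with offsets for GC content and length.

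Bbs7 was the single BBSome mRNA on the lower side. It encodes a beta-propeller subunit that pairs with BBS2. It had 65.1 and 59.9 CPM in TSSK2-IP and 153 and 77.4 CPM in control IgG-IP, and both TSSK2-IP values were below both controls. Bbs7 had a log2 fold change of -0.89 (SE 0.46, adjusted p = 0.412), and it was -0.25 without control replicate 1 and -1.36 without control replicate 2.

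The mRNAs of the chaperonin-like proteins, Bbs10 and Bbs12, differed little between the groups. Bbs10 had 27.6 and 30.4 CPM in TSSK2-IP and 27.0 and 21.8 CPM in control IgG-IP, with a log2 fold change of 0.25 (SE 0.39, adjusted p = 0.803). Bbs12 had 9.54 and 10.8 CPM against 10.1 and 8.73 CPM, with a log2 fold change of 0.11 (SE 0.46, adjusted p = 0.939). Their 95% intervals, -0.59 to 1.09 and -0.88 to 1.10, leave room for a 2-fold difference upward.

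Across the 31 mRNAs, the fitted log2 fold change was lower for longer coding sequences. The coding sequence of the longest coding transcript ran from 396 bases in Ift20 to 12918 bases in Dync2h1. The 4 shortest belonged to Ift20, Hspb11, Tctex1d2 and Ift22, of which the first 3 had both TSSK2-IP libraries above both controls (27.3% of all genes tested). Among the 16 mRNAs with at most 1875 coding bases, this order held for 6 and the opposite order for 4. Among the 15 longer ones, the numbers were 3 and 6. Over all genes tested, 27.3% had this order and 21.6% the opposite one. Spearman's rho of coding length with log2 fold change, across genes that are not independent replicates and that share the same 4 libraries, was -0.53 over the 31 mRNAs and -0.23 over 14686 protein-coding genes tested. It was -0.49 without control replicate 1 and -0.55 without control replicate 2. With the number of exons of that transcript, rho was -0.54, against -0.24 over the protein-coding genes.

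Of the 16 mRNAs with coding sequences of 396 to 1875 bases, 10 were fitted higher and 6 lower, with a median log2 fold change of 0.21, which was 0.28 without control replicate 1 and 0.01 without control replicate 2. Of the 15 with 2028 to 12918 bases, 5 were fitted higher and 10 lower, with a median of -0.42. The second median was 0.03 without control replicate 1 and -0.67 without control replicate 2. Coding length also went with the difference between the controls, with a rho of 0.51 with the log2 ratio of control replicate 1 to control replicate 2, against 0.05 over the protein-coding genes. The median of that log2 ratio was 0.98 in the longer mRNAs and 0.10 in the shorter ones. The part of coding length in the difference between TSSK2-IP and control IgG-IP was not tested.

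**Figure D4:**
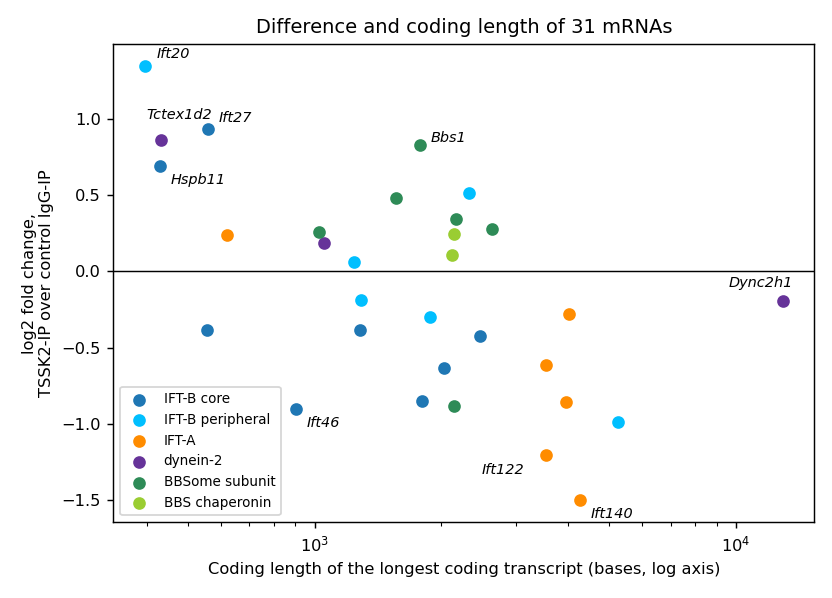
Fitted log2 fold change of each of the 31 mRNAs, TSSK2-IP over control IgG-IP (vertical), against the coding length of its longest coding transcript in bases (horizontal, log axis), coloured by complex. Ift20, the shortest at 396 bases, has the highest value at 1.35, and Ift140, at 4263 bases, the lowest at -1.50.

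Levels of single mRNAs among the 31 were compared with each other per kilobase of exon length, taken over all transcripts of a gene. This length was 2071 bases for Hspb11, whose longest coding transcript has 608 bases, and 2436 for Bbs12, whose longest has 2433. The order of the genes can change with the length used, and levels per transcript length were not computed. On this scale Ift74 was the most abundant of the 31 on average in both groups, with 76.3 and 78.7 CPM per kilobase in TSSK2-IP and 187 and 92.7 in control IgG-IP. Ift172, with 54.9 and 50.3, Ift140, with 51.1 and 44.2, and Bbs5, with 44.9 and 49.8, came next in TSSK2-IP. The range of Ift140 over these libraries overlapped those of the other two, so that the order of these 3 was not settled. In control replicate 1, Ift140 was the highest, at 209.6 CPM per kilobase. Per kilobase of this exon length, Hspb11 was at the other end in all 4 libraries, with 2.80 and 3.86 in TSSK2-IP and 1.51 and 2.66 in control IgG-IP. By mean level, Ift20 ranked 21 of 31 in TSSK2-IP, with 12.2 and 12.9, and 27 of 31 in control IgG-IP, with 4.30 and 5.57.

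A further 47 genes of the same transport system were followed. They encode the remaining IFT and BBS subunits, the rest of dynein-2 and the kinesin-2 motors, adaptors, kinases and small GTPases of IFT, and the ciliary transition zone, the gate at the base of the cilium. All 47 were tested, and 0 were called in either direction, against 0.693% higher and 0.000% lower of all genes tested. DESeq2 called 0 of them too and gave no adjusted p for 2. At an unadjusted p under 0.05 in edgeR, 0 were higher and 1 was lower, against 8.34% and 4.89% of all genes tested. The fitted value was above 0 for 21 and below 0 for 26, with a median log2 fold change of -0.20, which was 0.14 without control replicate 1 and -0.35 without control replicate 2. By list, the median was 0.57 for 9 other IFT and BBS subunits, -0.48 for 11 dynein-2 and kinesin-2 genes, -0.21 for 10 adaptors, kinases and GTPases, and 0.16 for 17 transition zone genes. Without control replicate 1 these medians were 0.45, -0.05, 0.05 and 0.22, and without control replicate 2 they were 0.61, -0.86, -0.59 and 0.07. The counts of Ttc30a1, Ttc30a2 and Ttc30b, near-identical copies in the first of these lists, are uncertain.

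The mRNA on the lower side was Rab3ip, which encodes Rabin8, the activator of RAB8 at the base of the cilium. It had 60.9 and 54.8 CPM in TSSK2-IP and 286 and 81.8 CPM in control IgG-IP. As with Ift140, control replicate 1 was far above the other 3 libraries. The log2 fold change was -1.67 (adjusted p = 0.268), and it was -0.44 without control replicate 1 and -2.37 without control replicate 2.

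Cell type markers were read beside these results. The 10 elongating spermatid markers summed to 8452 and 7806 CPM in TSSK2-IP and to 24894 and 10832 CPM in the controls. The sperm tail mRNAs Odf2 and Akap4 gave 10705 and 5879 CPM of the sum in control replicate 1. The median of the 10 log2 fold changes was -0.47, and it was -0.14 without control replicate 1 and -0.78 without control replicate 2. For 5 of them (Odf2, Akap4, Oaz3, Gapdhs and Prm2) the TSSK2-IP values were the lower ones without overlap, against 21.6% of all genes tested. For 1, Tnp1, they were the higher ones without overlap, against 27.3%. The log2 fold changes of Prm1, Tnp1, Tnp2, Smcp and Odf1 lay between -0.09 and 0.22. In normalized CPM, the sum of the 10 markers was highest in control replicate 1, the library with the highest level of 18 of the 31 IFT and BBS mRNAs. The sums for 6 round spermatid markers (604, 647, 809 and 626 CPM) and 7 spermatocyte markers (1040, 951, 1162 and 981 CPM, in the order TSSK2-IP replicates 1 and 2, control replicates 1 and 2) spread less. Over all genes tested, however, normalized CPM summed to 1533760 in control replicate 1 and to between 849498 and 895234 in the other libraries. Taken as a share of those totals, the elongating spermatid sum was still highest in control replicate 1. The round spermatid and spermatocyte sums were lowest there by share. The 6 spermatogonium markers summed to 33.1 to 53.5 CPM, and of them Gfra1 was lower at an unadjusted p under 0.05, with a log2 fold change of -1.80 (adjusted p = 0.173). The Sertoli, Leydig, peritubular and vascular, and macrophage lists each summed to between 12.5 and 43.5 CPM in every library. Of these somatic markers, Rhox5, Cldn11, Insl3, Cd68 and C1qa were below the filter on low counts, with at most 15 counts in a library. All 4 somatic sums were lowest in control replicate 1, at 13.7 CPM for Sertoli, 14.4 for Leydig, 17.2 for peritubular and vascular, and 12.5 for macrophage markers. The part of the germ cell stages in the values of the IFT and BBS mRNAs was not tested.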

How the data were processed

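RNA that was immunoprecipitated with anti-TSSK2 or mouse IgG from adult mouse testis was measured in 2 libraries per group. The authors deposited raw read counts per gene. Per the submitters' processing notes, reads were trimmed with Trimmomatic 0.39, mapped to GRCm38 with STAR 2.7.10a and counted with featureCounts 2.0.3. The strand setting and the treatment of reads over several genes are not given in the sources used here, so reads from overlapping genes on opposite strands may not be told apart. The total count ranged from 3938922 to 9858941 per library. A limit of 3 counts was 0.468 to 0.689 CPM and covers counting error only.

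Of 21936 identifiers, 21894 were named through GENCODE vM21 and 42 were not. Counts were normalized by TMM in edgeR 4.0.16 (R 4.3.3, limma 3.58.1), filterByExpr kept 14722 genes, and the groups were compared by the quasi-likelihood test of edgeR, with p-values adjusted by Benjamini-Hochberg over all genes kept. Levels are normalized CPM. The standard error is the log2 fold change divided by the square root of F, and the 95% interval uses the t distribution with the fit's degrees of freedom. An exact permutation test, two-sided, of 2 libraries against 2 has a smallest p of 0.333, and the adjusted p-values therefore depend on the spread that edgeR shares between genes (common dispersion 0.135). Lengths and exon overlaps came from GENCODE vM21.

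Full values are given for the 4 higher and 4 lower mRNAs with the smallest p, the highest and lowest log2 fold change of each complex, the highest level per length, any mRNA called in a fit, and any with TSSK2-IP libraries 2-fold above or below both controls; other mRNAs were named with their values as descriptions. The members and gene lists were chosen with earlier results of these data known. Alternatives were DESeq2 1.42.0, its size factors in edgeR, upper-quartile normalization, no filter, at least 10 counts in every library, removal of Lars2 and mitochondrial genes, offsets for GC content and length, the replicate number as a block, and leaving out each library. On simulated data with 200 of 14722 genes changed 4-fold, edgeR recovered 53 at a dispersion of 0.135 and 178 at 0.02. DDX4-IP was not analysed here.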

Additional observations from a re-analysis of the deposited data

How the results depend on the processing

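No IFT or BBS mRNA was called with DESeq2, its size factors, upper-quartile normalization, either filter on low counts, GC and length offsets, removal of Lars2 and mitochondrial genes, or the replicate block, where the smallest adjusted p ranged from 0.153 to 0.305. Leaving out 1 library gave 0 to 3 mRNAs called higher and 0 to 9 called lower. Without control replicate 1 the call was Ift20, higher. Without control replicate 2 the calls were Ift20, Bbs1 and Ift27 higher and Ift46, Ift140, Ift74, Ift81, Ift122, Ttc21b, Bbs7, Ift172 and Wdr35 lower. Such fits have a lone control library, which is assumed to vary as little as the TSSK2-IP pair. They also gave the highest numbers of calls over all genes, so a call in them alone does not set an mRNA apart. The median log2 fold change of the 31 mRNAs ranged from -0.37 to 0.14 over all the fits named above. Over all genes, 102 were called higher, against 160 with DESeq2, 20 with upper-quartile normalization, 283 with no filter, 29 with at least 10 counts in every library, 274 with the replicate block and 23 to 2755 without 1 library. Lower calls numbered 0, against 1 with DESeq2, 24 with no filter, 3 with the replicate block and 0 to 2688 without 1 library. The median log2 fold change of all genes tested was -0.02, and it was -0.14 with DESeq2's size factors on the same genes. It was -0.15 in edgeR with no filter and -0.20 with DESeq2, both over more genes.

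The groups share replicate numbers, but nothing in the labels pairs the samples. The correlation over genes of the replicate differences was 0.126 over 2 pairs, and the replicate block left the median of the 31 mRNAs at -0.19.

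Signs turned for the following mRNAs, none of them called with all 4 libraries. With GC and length offsets, Bbs5 was at -0.19, Dync2li1 at -0.0013 and Bbs12 at -0.19. Cluap1 was at -0.016 with DESeq2 and -0.064 with its size factors, with which Bbs12 was at -0.024. Without 1 library, the log2 fold change ranged from -1.13 to 0.032 for Ift81, -1.15 to 0.13 for Wdr35, -0.95 to 0.44 for Ift22, -0.67 to 0.20 for Wdr19, -0.23 to 0.87 for Ift43, -0.23 to 0.97 for Bbs9, -0.032 to 0.35 for Dync2li1, -0.41 to 0.022 for Dync2h1, -0.060 to 0.28 for Bbs12 and -0.027 to 0.14 for Cluap1. The cause of these turns was not tested.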
